A study of Rattus norvegicus with 8 samples.

Results

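miR-21 is a microRNA whose hairpin precursor yields 2 mature strands, miR-21-5p and miR-21-3p. They were examined here in small RNA libraries from exosomes, the small vesicles that cells secrete, of rat intervertebral disc cells. Members were the table rows with rat names that, without their isoform suffix, read rno-miR-21-5p or rno-miR-21-3p. Each strand was held by 1 row, so 2 of 1512 deposited rows and 2 of 415 rat mature names belong to miR-21. No row named after another species carried the name miR-21, and 0 other rows had the sequence of either strand, so reads of miR-21 were not divided between rows.

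The libraries came from 2 groups of 4. One set of vesicles came from nucleus pulposus cells (abbreviated NPC), which populate the soft centre of the disc, and the other from progenitors of that tissue, nucleus pulposus progenitor cells (abbreviated NPPC). The labels give intervertebral disc as the tissue of both groups and name no strain, age, sex or treatment. The same labels enter each cell type as a cell line, and they do not say whether replicates were separate cultures or animals. P-values therefore measure the spread between these libraries only, which may be technical.

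As background, a hairpin is cut by Drosha and Dicer into a duplex, of which usually one strand, the guide, is kept in Argonaute while the other, the passenger, is mostly degraded. In miR-21 the guide is the 5p strand. miR-21-5p is abundant in fibroblasts and other mesenchymal cells, is induced by STAT3 and AP-1 and at the processing step by TGF-beta signalling, and represses Pdcd4, Spry1, Reck and Timp3. It is often described as a survival and pro-fibrotic miRNA.

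The mature strands and the hairpin are shown because the letters bear on the results that follow. RefSeq places the hairpin at chr10:71902600-71902691 on the minus strand of GRCr8, where the nearest annotated gene end is that of Vmp1, 532 bases away. The deposited table gives the same 92 letters on the minus strand of chromosome 10 from 73902210 to 73902301, in a build that the labels and headers used here do not name. In the mature strands, written 5′ to 3′, capitals mark the seed (bases 2 to 8), the stretch that pairs with targets.
miR-21-5p: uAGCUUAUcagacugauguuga
miR-21-3p: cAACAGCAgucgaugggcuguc
In the hairpin, capitals mark the mature strands, with a loop of 16 bases between them.
Mir21 hairpin: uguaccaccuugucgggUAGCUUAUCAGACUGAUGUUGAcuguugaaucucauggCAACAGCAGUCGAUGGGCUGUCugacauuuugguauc

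The rows of the deposited table were length isoforms of these strands. The 5p row was 23 bases long and carried 1 base more at its 3′ end than the RefSeq strand, shown in capitals, which is also the next base of the hairpin. The 3p row was 21 bases long, 1 base shorter than the RefSeq strand, and its last base is in capitals.
deposited 5p row: tagcttatcagactgatgttgaC
deposited 3p row: caacagcagtcgatgggctgT
The strands differ in base composition, with 39.1% G or C in the 5p row and 57.1% in the 3p row. Of 693 rat mature sequences in RefSeq, 1 held the seed of miR-21-5p and 1 that of miR-21-3p, which were the strands themselves. In the deposited table too, no other row shared either seed. The letters CAGAC, the core of the element at which SMAD proteins bind some miRNA precursors, start at base 9 of miR-21-5p. They occur in 8.11% of 419 rat RefSeq hairpins, and their reverse complement GUCUG, which the Mir21 hairpin also holds 1 time, in 16.7%. These matches describe letters only.

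Library totals ran from 329011 to 681591 counts in NPC and from 819845 to 1416940 in NPPC exosomes, so every NPPC library was deeper. One library, NPC replicate 1, stood apart, with a TMM scaling factor of 1.83 where the others lay between 0.838 and 1.02. Results are therefore given with and without it. miRNAs of mesenchymal cells (miR-199a, miR-214, miR-143 and miR-145, 5 of 5 strands tested) summed to 18.7% to 23.2% of NPC and 15.9% to 17.8% of NPPC counts. The cartilage miRNAs miR-140 and miR-455 (4 of 4 tested) summed to 0.997% to 2.64% and 0.758% to 0.917%. Marker lists of erythrocytes, leukocytes, endothelium, epithelium, neurons, muscle and liver each stayed at or under 0.129% of counts in every library. Of these markers miR-223-3p, miR-141-3p and miR-208a-3p had no rat-named row among those deposited. Their part in the miR-21 results was not tested.

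miR-21-5p was the most abundant rat miRNA in 7 of 8 libraries. In NPC exosomes it held 5.55%, 24.2%, 30.5% and 25.1% of all counts in replicates 1 to 4 (18268, 149719, 207864 and 134921 counts). In NPPC exosomes it held 29.0%, 28.5%, 29.7% and 31.7% (237436, 310754, 420146 and 415705 counts). NPC replicate 1 was low, NPC replicates 2 and 4 lay below every NPPC library, and NPC replicate 3 lay inside the NPPC range, so the groups overlapped. In such bulk libraries, fewer cells or vesicles that carry a miRNA and less of it in each cannot be told apart. At these depths the 95% Wilson interval of the lowest share ran from 5.47% to 5.63%, far narrower than the spread between libraries. Such intervals cover counting error only, since the reads carry no molecular identifiers.

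For NPC exosomes the mean share was 21.3% ± 10.9 (SD, n = 4), and for NPPC exosomes 29.7% ± 1.42 (SD, n = 4), which is 8.36 percentage points more. A two-sided exact permutation test over 70 arrangements gave p = 0.114, and 0.114 after Benjamini-Hochberg adjustment over the 3 permutation tests made on miR-21, where 0.0286 is the smallest p the design allows. With NPC replicate 1 left out the NPC mean was 26.6% ± 3.40 (SD, n = 3) and the difference 3.10 points (exact permutation p = 0.200). Without NPC replicate 3 it was 11.4 points with an exact permutation p of 0.0286, the smallest that 35 arrangements can give. NPC replicate 3 was the only NPC library within the NPPC range, so leaving it out fixed that p in advance. As a share of the total without miR-21 the difference was 13.5 points (exact permutation p = 0.114).

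**Figure D1:**
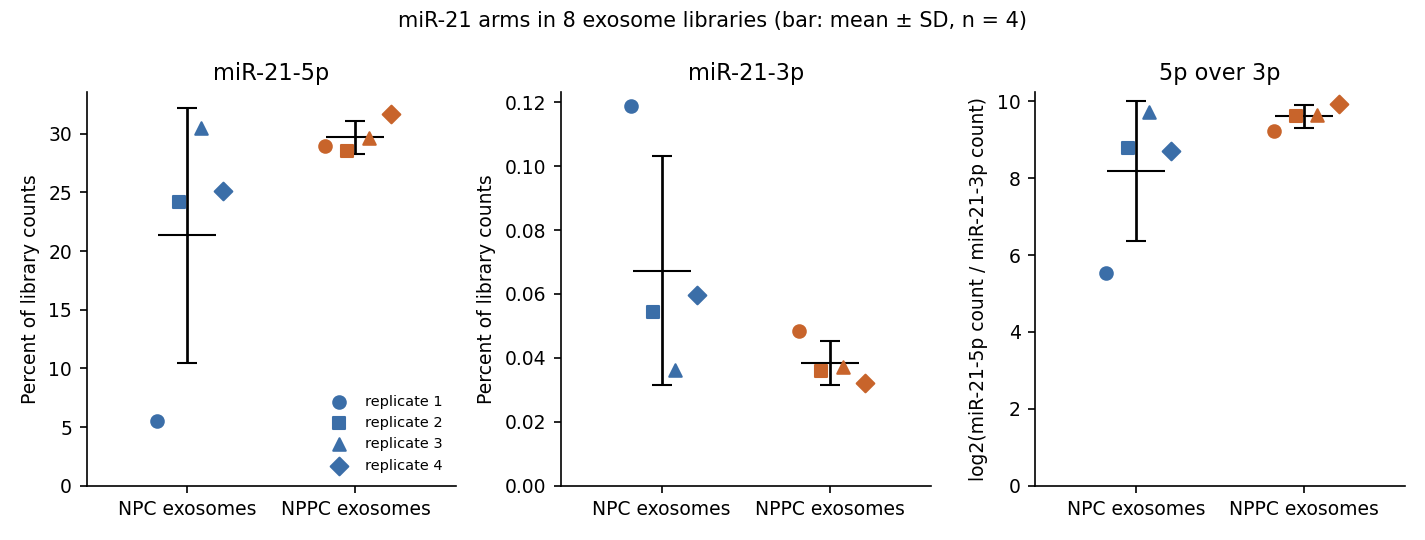
Percent of library counts of miR-21-5p (left) and miR-21-3p (middle) and the log2 ratio of their counts (right) in 4 NPC (blue) and 4 NPPC (orange) libraries. Each symbol is a replicate number and bars give the mean ± SD. NPC replicate 1 is lowest for miR-21-5p (5.55%), highest for miR-21-3p (0.119%) and lowest for the ratio (5.55 on the log2 scale), while NPC replicate 3 lies within the NPPC range in all 3 panels.

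The lead of miR-21-5p over the runner-up was also measured. In the 7 libraries where it came first, the next rat miRNA was miR-199a-3p, a strand of a mesenchymal miRNA. miR-21-5p had 3.33, 3.93 and 3.57 times as many counts in NPC replicates 2 to 4. In NPPC replicates 1 to 4 it had 4.41, 3.85, 4.69 and 4.92 times as many, so the groups overlapped only through NPC replicate 3 and NPPC replicate 2. In NPC replicate 1 miR-21-5p held rank 5, behind miR-199a-5p (12.0%), miR-27b-3p, miR-125b-5p and miR-143-3p, with 0.461 times the counts of miR-199a-5p. With miR-21-5p at the top, 5 or 6 names made up 50% of the counts of a library, against 9 in NPC replicate 1.

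By mean share over the 8 libraries the order was miR-21-5p (25.5%), miR-199a-5p (6.80%), miR-199a-3p (6.70%), miR-27b-3p (5.92%) and miR-143-3p (4.82%). The first place exceeded the others in every library except NPC replicate 1. The places after it were not separated beyond their spread, since miR-199a-5p ranged from 5.58% to 12.0% and miR-199a-3p from 4.78% to 7.76%.

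**Figure D2:**
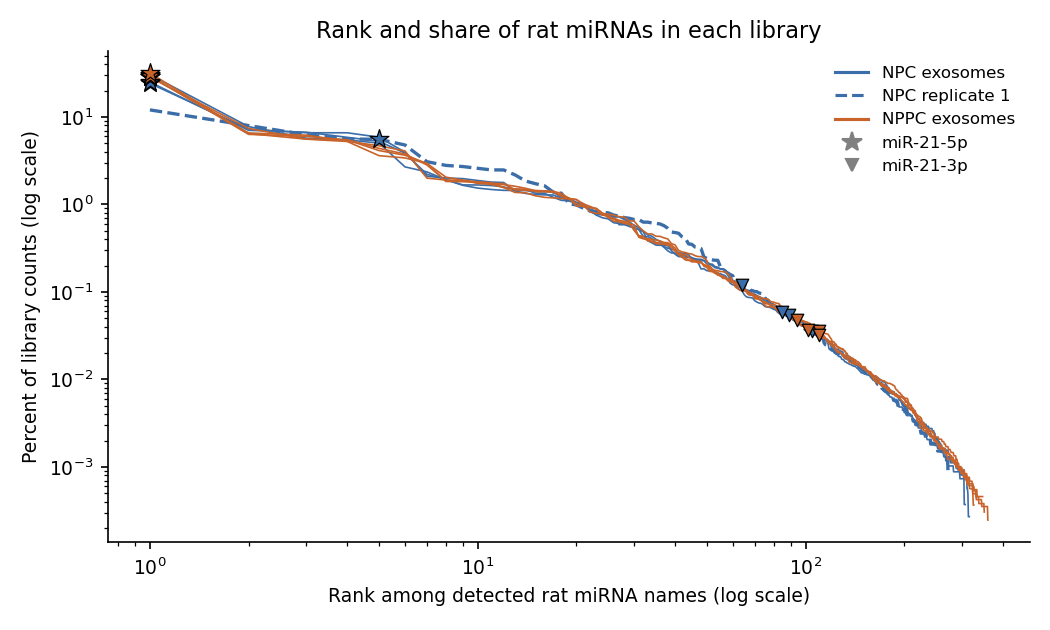
Share of library counts against rank for the rat miRNA names detected in each library, both axes on a log scale, with NPC in blue (replicate 1 dashed) and NPPC in orange. Stars mark miR-21-5p, at rank 1 in 7 libraries and rank 5 in NPC replicate 1, and triangles mark miR-21-3p, between rank 64 and rank 110.

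The passenger strand, miR-21-3p, was detected in all 8 libraries at a far lower level. NPC exosomes held 391, 336, 246 and 321 counts of it in replicates 1 to 4, which are 0.119%, 0.0544%, 0.0361% and 0.0597% of counts. NPPC exosomes held 397, 392, 527 and 422 counts, or 0.0484%, 0.0359%, 0.0372% and 0.0322%. NPC replicate 1 was highest, and NPC replicate 3 lay inside the NPPC range as it did for the guide.

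Counting error was not negligible for this strand. The 95% Wilson interval was 0.0319% to 0.0409% in NPC replicate 3 and 0.0293% to 0.0354% in NPPC replicate 4. For NPC exosomes the mean share was 0.0673% ± 0.0358 (SD, n = 4), and for NPPC exosomes 0.0384% ± 0.00699 (SD, n = 4). The exact permutation p was 0.0857 (adjusted 0.114 over the 3 tests). Without NPC replicate 1 the NPC mean was 0.0501% ± 0.0124 (SD, n = 3), with an exact permutation p of 0.200. Without NPC replicate 3, the only NPC library within the NPPC range, the exact permutation p was fixed at its smallest, 0.0286. The difference of -0.0288 points was -0.0118 points with totals multiplied by the TMM factor (exact permutation p = 0.0857).

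miR-21-3p ranked between 64 and 110 among detected rat names in single libraries and came 90th by mean share. Its neighbours in that order were miR-652-3p (0.0570%) and miR-106b-3p (0.0527%), against 0.0528% for miR-21-3p. In NPC exosomes both neighbours lay within the range of miR-21-3p or beside it, at 0.0358% to 0.122% and 0.0415% to 0.105%. In NPPC exosomes miR-652-3p ran from 0.0485% to 0.0583%, just above the highest miR-21-3p library (0.0484%), and miR-106b-3p from 0.0412% to 0.0478%, within its range.

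The strands were also compared within each library, where the library total cancels. For each miR-21-3p count there were 46.7, 446, 845 and 420 miR-21-5p counts in NPC replicates 1 to 4, and 598, 793, 797 and 985 in NPPC replicates 1 to 4. Passenger counts thus made up 2.10%, 0.224%, 0.118% and 0.237% of both strands in NPC, and 0.167%, 0.126%, 0.125% and 0.101% in NPPC exosomes. NPC replicates 1, 2 and 4 held relatively more passenger than any NPPC library, and NPC replicate 3 less than 3 of the 4 NPPC libraries.

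On the log2 scale the ratio of guide to passenger averaged 8.20 ± 1.82 (SD, n = 4) among NPC libraries against 9.61 ± 0.30 (SD, n = 4) among NPPC libraries, which is 1.41 higher. The exact permutation p was 0.114, unchanged at 0.114 after adjustment over the 3 tests. With NPC replicate 1 left out it was 0.53 (exact permutation p = 0.200), and without NPC replicate 3 it was 1.92 (exact permutation p = 0.0286). Leaving out NPC replicate 1 therefore reduced the difference by more than 1.5 times. NPC replicate 3 was the only NPC library within the NPPC range, so leaving it out fixed the exact permutation p of 0.0286 in advance.

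Across libraries the strands moved in opposite directions. Between the log2 shares of miR-21-5p and miR-21-3p Pearson's r was -0.92 (exact permutation p = 0.00184) and Spearman's rho -0.83 (exact permutation p = 0.0154) over 8 libraries, the only relation across libraries that was tested. Over the 7 libraries other than NPC replicate 1 r was -0.89 (exact permutation p = 0.0147) and rho -0.75 (exact permutation p = 0.0663). Without the 2 libraries farthest from the median of miR-21-5p, NPC replicates 1 and 2, r was -0.88 over 6 libraries (exact permutation p = 0.0389) and rho -0.66 (exact permutation p = 0.175). The strands share each library, its total and its composition trend, and with 4 libraries per group the relation could not be tested within a group. A trend with composition was also computed for the 7 libraries other than NPC replicate 1. Deviations of 278 rat names from the mean of these 7 correlated with GC percent (Spearman) at 0.40, -0.22 and 0.25 in NPC replicates 2 to 4. In NPPC replicates 1 to 4 the values were 0.30, -0.26, -0.15 and -0.32. Each library is part of that mean, so deviations of a name cancel over the 7 and mixed signs were built in. Against the mean of all 8 libraries the 7 values were negative, from -0.63 to -0.066. Whether the trend reaches beyond NPC replicate 1 was not tested. The part of this trend in the relation between the strands was not tested.

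Among hairpins with both strands counted in every library the arm bias of miR-21 was strong. In 69 hairpins both strands had rat names and passed the filter on low counts, and in 50 of them both were above 0 in every library. These rules left out hairpins with a nearly absent strand, so ranks and median hold among the 50 only. One left out was miR-191a, whose 3p strand had 0 counts in NPC replicates 2 to 4. miR-21 held the most counts of the 50 and had the 3rd largest mean log2 difference between strands, 8.90, where the median was 2.38. miR-27b had 9.75 and miR-152 had 8.98, both in favour of the 3p strand. By contrast the strands of miR-199a were nearly equal, with 48.0% of counts on the rarer strand, while the rarer strand held 0.913% in miR-143 and 0.160% in miR-21. The NPC and NPPC ratios did not overlap in 5 of the 50 hairpins (miR-22, miR-28, miR-106b, miR-345 and miR-674), a background of 10%, and miR-21 was not among them. Leaving out NPC replicate 1, they did not overlap in 9 (18%), and miR-21 was again not among them. Its difference of 1.41 ranked 2nd in size of the 50 and was 12th without NPC replicate 1.

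The comparison of NPPC with NPC exosomes across the whole table asked which miRNAs differ between the vesicles of the 2 cell types. It was fitted with edgeR's quasi-likelihood test on counts scaled by TMM, a method that weighs down names far from the bulk. Of 444 names tested 0 passed at an adjusted p under 0.05, a background of 0%, and 61 (13.7%) had an unadjusted p under 0.05. By DESeq2's Wald test 10 names passed and 75 had an unadjusted p under 0.05, and by limma-voom 1 passed and 72 had such a p. Neither strand of miR-21 passed in any of these.

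Levels are given as CPM, counts scaled by TMM to a common library size. miR-21-5p averaged 217827 ± 135454 CPM (SD, n = 4) among NPC libraries against 335831 ± 33024 CPM (SD, n = 4) among NPPC libraries. Its log2 fold change of NPPC over NPC was 0.62 ± 0.58 (SE), with a 95% interval from -0.71 to 1.96 and an adjusted p of 0.615 (edgeR, Benjamini-Hochberg). miR-21-3p averaged 549 ± 97.8 CPM (SD, n = 4) against 431 ± 51.2 CPM (SD, n = 4). Its log2 fold change was -0.35 ± 0.20 (SE), with a 95% interval from -0.80 to 0.10 and an adjusted p of 0.457 by the same test. The guide value was positive and the passenger value negative, and both intervals held 0. In 66 of the 444 names (14.9%) the groups did not overlap on this scale, and both strands of miR-21 overlapped.

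Without NPC replicate 1 the log2 fold change of miR-21-5p was 0.22 (adjusted p = 0.368 by edgeR) and that of miR-21-3p was -0.30 (adjusted p = 0.338 by edgeR). Over all 25 alternatives the adjusted p ran from 0.270 to 0.891 for miR-21-5p and from 0.253 to 0.901 for miR-21-3p. With each library corrected for GC content they were 0.21 and -0.13, and with that correction and without NPC replicate 1 they were 0.028 and 0.15, the latter with the sign turned. Total count scaling moved the median log2 fold change of all names from 0.052 to -0.35. Relative to the median of all names miR-21-5p was at 0.57 with TMM and 0.83 with total count scaling, and miR-21-3p at -0.40 and -0.45. Relative to that median the sign of miR-21-5p turned with the GC correction without NPC replicate 1 (-0.096). That of miR-21-3p turned in the same setting (0.029) and with no filter on low counts (0.10).

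**Figure D3:**
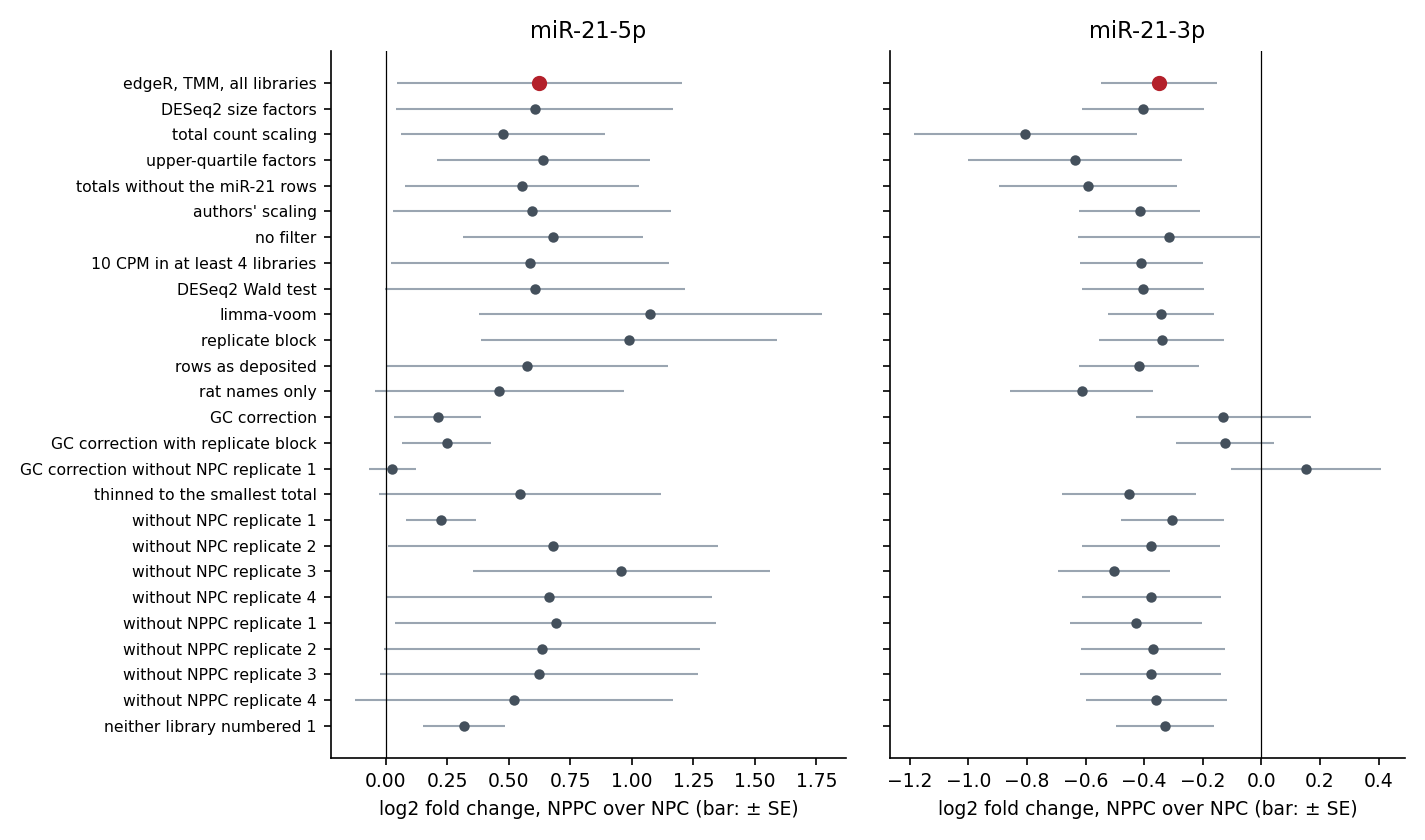
Log2 fold change of NPPC over NPC exosomes (x axis, with its SE as a bar) for miR-21-5p (left) and miR-21-3p (right) under the test of the report (red, top) and 25 alternatives (grey). miR-21-5p stays positive, from 0.028 to 1.08, and miR-21-3p is negative in all but the GC correction without NPC replicate 1 (0.15).

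The low guide and high passenger share of NPC replicate 1 were set beside base composition. For each of 278 rat names tested, its log2 CPM in NPC replicate 1 was compared with the mean of the other 3 NPC libraries, with total count scaling and 2 CPM added. The difference was -2.25 for miR-21-5p and 1.28 for miR-21-3p. Over the 278 names this difference had a Spearman correlation of 0.83 with GC percent, a description across names that share the libraries. Of 53 names under 40% GC 52 were lower in NPC replicate 1, and of 120 names at or over 50% GC 113 were higher.

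Both strands lay within the range of names of like composition. Within 2.5 points of the GC percent of miR-21-5p there were 45 other names, with a median of -1.32 and a range from -6.33 to 1.20, and 9 of them were lower than miR-21-5p. Within the same distance of miR-21-3p there were 24, with a median of 1.35, and 11 of them were lower than miR-21-3p. The strand ratio was set beside the GC difference between strands in the same way. miR-21 has the 3rd most negative GC difference between strands of the 50 hairpins, -18.0 points, and its log2 ratio in NPC replicate 1 minus the mean of the other NPC libraries was -3.53. The only hairpin of the 50 with a lower value was miR-450b, at -4.30 with a GC difference of -18.2 points. Among other hairpins of like GC difference, miR-493 (-16.0 points) was at -3.41 and miR-106b (-20.8 points, the most negative of the 50) at -1.41. miR-181c (-17.4 points) was at 0.090. Both strands of miR-493 and of miR-181c together averaged only 0.0130% and 0.00804% of counts. Of 31 hairpins whose 5p strand had the lower GC, 26 had a lower ratio of 5p to 3p in NPC replicate 1, and of 16 with the higher GC in the 5p strand 12 had a higher ratio. The part of base composition in the values of NPC replicate 1 was not tested.

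**Figure D4:**
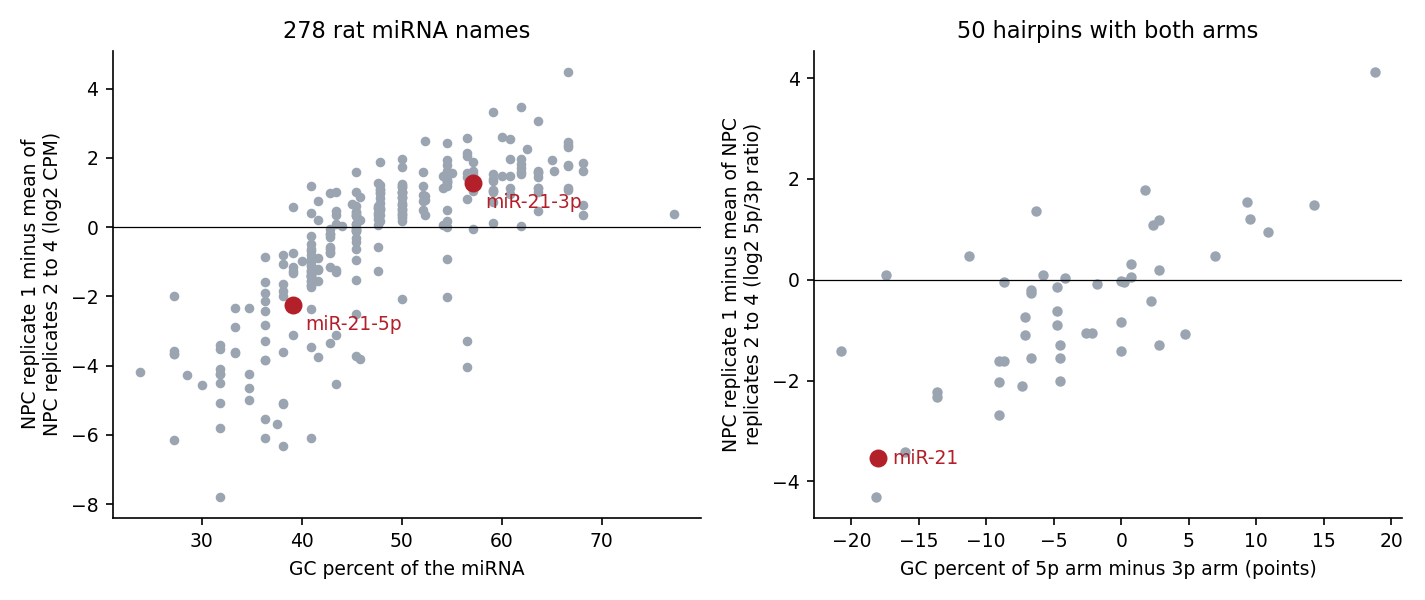
Left, the difference in log2 CPM between NPC replicate 1 and the mean of NPC replicates 2 to 4 against GC percent, 1 point for each of 278 rat names. Right, the same difference for the log2 ratio of 5p to 3p counts against the GC difference between strands, 1 point for each of 50 hairpins. miR-21-5p (-2.25), miR-21-3p (1.28) and the miR-21 ratio (-3.53) are in red. Both strands lie within the spread of names of similar GC percent, while hairpins of similar GC difference range from -4.30 to 0.090.

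The names whose pattern over the 8 libraries was most like that of miR-21-5p were found by Pearson correlation of log2 CPM over 277 other rat names. The 5 highest were miR-7a-5p (0.996), miR-1839-5p (0.995), miR-365-3p (0.994), miR-26b-5p (0.993) and let-7c-2-3p (0.993). All 5 were nearly or wholly missing from NPC replicate 1. miR-7a-5p, for example, held 0.00790% of counts there, 0.0895% to 0.125% in the other NPC libraries and 0.109% to 0.148% in NPPC exosomes. miR-26b-5p, whose family restrains growth and matrix genes, held 0.0123%, 0.187% to 0.236% and 0.246% to 0.317% in the same order. miR-1839-5p and miR-365-3p had 0 counts in NPC replicate 1.

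Without NPC replicate 1 these 5 correlations fell to between 0.674 and 0.892, and the names took places 5 to 35, so the order rested largely on that library. The least alike were miR-25-3p (-0.994), miR-199a-5p (-0.987) and miR-149-5p (-0.980), which were -0.905, -0.869 and -0.893 without NPC replicate 1. miR-25-3p held 0.907% of counts in NPC replicate 1, 0.364% to 0.433% in the other NPC libraries and 0.361% to 0.415% in NPPC exosomes. With NPC replicate 1 included, GC content went with likeness, with a median of 32.6% in the 20 names most like miR-21-5p, 60.0% in the 20 least like it and 47.6% in all 277. These GC medians were not taken without NPC replicate 1.

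For miR-21-3p the most alike were miR-351-3p (0.991), miR-296-3p (0.986) and miR-351-5p (0.985), with GC contents of 66.7%, 68.2% and 61.9%. Over the other 7 libraries they were 0.976, 0.965 and 0.961, at places 1, 4 and 7, so this order depended less on that library. miR-351-5p held 0.628% of counts in NPC replicate 1, 0.164% to 0.240% in the other NPC libraries and 0.134% to 0.176% in NPPC exosomes.

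Other miRNAs that share regulators or roles with miR-21 were taken as lists. Of 8 miRNAs that, like miR-21, are induced by STAT3, AP-1, NF-kappaB or CREB, 8 were tested and 0 passed by edgeR, with 3 (miR-146a-5p, miR-155-5p and miR-221-3p) at an unadjusted p under 0.05, against 13.7% of all names. The lists share members with each other, and members named for their unadjusted p were named after their values were seen. Their median log2 fold change was 0.34, with 7 of 8 positive, where all 444 names had a median of 0.052 and 231 were positive. With total count scaling it was -0.027, with 4 of 8 positive, where the median of all names was -0.35. miR-221-3p, a repressor of Cdkn1b (an inhibitor of the cell cycle), averaged 16043 ± 1504 CPM (SD, n = 4) against 21748 ± 1343 CPM (SD, n = 4). Its log2 fold change of 0.44 had an adjusted p of 0.277 by edgeR. Its partner miR-222-3p had 0.38 and miR-181b-5p had 0.085. Lowest in p of the 8 came miR-146a-5p, a brake on NF-kappaB signalling, which averaged 84.4 ± 43.3 CPM (SD, n = 4) against 943 ± 224 CPM (SD, n = 4). It was chosen after its values were seen. The fitted change of 3.48 missed the threshold (edgeR adjusted p = 0.0530), and it passed without NPC replicate 1 (adjusted p = 0.000864 by edgeR). With all 8 libraries it passed under several other settings. Among them were total count scaling (adjusted p = 0.00416 by edgeR), limma-voom (adjusted p = 0.0235) and DESeq2's Wald test (adjusted p = 1.8e-10). With rows as deposited, or with any library but NPC replicate 1 left out, 0 names passed by edgeR. miR-21-5p, by comparison, had a log2 fold change of 0.62.

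Fibrosis was covered by 2 lists, one of miRNAs usually named with miR-21 as pro-fibrotic and one of miRNAs described as opposing fibrosis. Of 7 pro-fibrotic miRNAs 7 were tested and 0 passed by edgeR, with 3 (miR-34a-5p, miR-145-5p and miR-155-5p) at an unadjusted p under 0.05, against 13.7% of all names. The median of the 7 was 0.069 with 4 of 7 positive, and -0.41 with 2 of 7 positive under total count scaling. Over all names the medians were 0.052 and -0.35. miR-199a-5p was at -0.0011, miR-214-3p at 0.069 and miR-145-5p at 0.43. Of 11 opposing miRNAs 9 were tested and 0 passed by edgeR, with 1 (miR-29a-3p) at an unadjusted p under 0.05, against 13.7% of all names. The median of the 9 was 0.55 with 6 of 9 positive, and 0.37 with 6 of 9 positive under total count scaling. The most abundant, miR-26a-5p, was at 0.55 (14111 ± 7545 and 20666 ± 1809 CPM, SD, n = 4), miR-29a-3p, which represses collagen genes, at 0.70, and let-7d-5p at 0.66. The NPC spread of miR-26a-5p, like that of miR-21-5p, came mainly from NPC replicate 1, at 2926 CPM. Without NPC replicate 1 the 3 medians were 0.30, 0.26 and 0.23 in the order given. With the GC correction they were 0.24, 0.32 and 0.12, and with that correction and without NPC replicate 1 0.41, 0.69 and 0.12. In the settings without NPC replicate 1 the opposing list had 10 members tested, not 9. The pro-fibrotic median was above the opposing one in each of these settings, but only 0.26 against 0.23 without NPC replicate 1 alone. It was below the opposing one with all libraries by the main test, with total count scaling and in most other alternatives. Over all names the medians were -0.048 without NPC replicate 1, 0.046 with the GC correction and 0.12 with both.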

How the data were processed

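Small RNA was sequenced in 8 exosome libraries, prepared with a TruSeq small RNA kit per the labels' protocols. The submitters' processing notes name CASAVA 1.8. The labels used here name no aligner, miRBase version or genome build. Values are estimated counts per row as the authors deposited them (82.3% of 5804 values above 0 whole within 1e-09) beside a scaled signal, also deposited, that, per the file headers and values, is the count times 1 factor per library.

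Groups and replicate numbers came from the titles. Rat-named rows were summed per mature name, other rows kept, and estimated counts rounded. Tests used edgeR 4.0.16 (TMM, filterByExpr, quasi-likelihood, group only, Benjamini-Hochberg over 444 names) in R 4.3.3, and two-sided exact permutation tests in Python 3.11.15. Scripts were tested on simulated data. Alternatives used DESeq2 1.42.0 and limma 3.58.1, other scalings and filters, thinning, a replicate block, a GC correction (loess, span 0.75) and each library left out. Sequences came from RefSeq (GRCr8). Named miRNAs were both strands, the 5 most abundant names, neighbours in rank, names of highest and lowest likeness, the most abundant hairpins and the 3 list members highest in mean CPM. miR-125b-5p, miR-146a-5p, miR-450b, miR-181c, miR-493 and the 5 hairpins whose groups did not overlap were added after their values were seen. The members and lists were chosen with earlier results of these data known. The result of 1 planned list is not reported here.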

Additional observations from a re-analysis of the deposited data

Results flagged for a closer look

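In 7 of 46 groups of 4 libraries examined, 1 library lay far from the other 3 on Dixon's criterion. None of the 7 was a miR-21 value. Chance gives about 1 in 20 for independent groups, but that rate does not apply here. The names share the libraries, and some were chosen from these data by likeness to miR-21. In NPC replicate 1 miR-199a-5p held 12.0% of counts (others 5.71% to 6.70%), miR-25-3p 0.907% (others 0.364% to 0.433%) and miR-351-5p 0.628% (others 0.164% to 0.240%). In the same library miR-652-3p held 0.122% (others 0.0358% to 0.0472%), miR-106b-3p 0.105% (others 0.0415% to 0.0518%) and miR-296-3p 0.0720% (others 0.0153% to 0.0229%). In NPPC replicate 1 miR-106b-3p held 0.0478% (others 0.0412% to 0.0419%).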

How the results depend on the processing

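Over 25 alternatives the log2 fold change of miR-21-5p lay between 0.028 and 1.08 (adjusted p 0.270 to 0.891) and that of miR-21-3p between -0.81 and 0.15 (0.253 to 0.901), and neither passed. miR-21-3p changed sign once, to 0.15 with the GC correction without NPC replicate 1. With a library left out, miR-21-5p ran from 0.22 to 0.96 and miR-21-3p from -0.50 to -0.30, the share difference of miR-21-5p from 3.10 to 11.4 points, that of miR-21-3p from -0.0392 to -0.0116 points and the log2 strand ratio from 0.53 to 1.92. The highest differences of both shares in size and of the ratio came without NPC replicate 3, the only NPC library within the NPPC range in each. Leaving it out fixed the exact permutation p at 0.0286, the smallest possible. With totals of rat-named rows, totals without miR-21 and totals times the TMM factor the share differences were 8.10, 13.5 and 11.8 points for miR-21-5p and -0.0314, -0.0277 and -0.0118 points for miR-21-3p. Using only the most abundant row of a strand, or adding rows of other species, was not run, since each strand had 1 row and no such row of another species was in the table.

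The number of names called, 0 of 444, became 1 with total count scaling, the authors' scaling, size factors from DESeq2, upper-quartile factors, totals without miR-21, the 10 CPM filter, limma-voom, rat names only, thinning, and the GC correction alone, with the block or without NPC replicate 1. It became 2 without a filter, 10 with DESeq2's Wald test and 45 with neither library numbered 1, and with a library left out ran from 0 to 2. The cause was not tested. Called members of the inducible list became 1 in most of these settings (0 to 1 with a library left out). They were 2 with the Wald test and 4 with neither library numbered 1, where the pro-fibrotic list had 1 and the opposing list 2. In every setting with a called member of the inducible list, miR-146a-5p was among them. Same-numbered libraries deviated together with correlations of 0.573, 0.156, 0.221 and 0.035, and NPC replicates 2, 3 and 4 correlated better with another number than their own, so the numbers were not taken as pairs. With a replicate block the log2 fold changes were 0.99 and -0.34 (adjusted p = 0.442 each) and 0 names were called, and paired sign-flip tests gave an exact permutation p of 0.250 for both shares and the ratio, with 0.125 the smallest possible. Depth limits miR-21-3p, with 246 to 527 counts per library, more than miR-21-5p.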
